A study of Mus musculus with 6 samples.

Results

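The 9 genes described here encode a surface protein and 8 transcriptional regulators of hematopoietic stem and progenitor cells: *Cd34*, *Gata2*, *Tal1*, *Lmo2*, *Hoxa9*, *Meis1*, *Myb*, *Runx1* and *Hlf*. They were taken by symbol from the probe sets that the annotation table of the array pairs with exactly 1 gene symbol, which name 19937 genes in all. All 9 were measured, each by 1 probe set. The samples were plasmacytoid dendritic cells (pDCs) that had been differentiated *ex vivo* from total bone marrow of 3 C57BL/6 mice in 25 ng/ml Flt-3L and sorted as B220+ CD11c+ cells. Every culture, untreated ones included, had the genotype Gfi1f/f; Gfi1bf/f; ERCre, so both *Gfi1* alleles and both *Gfi1b* alleles were floxed and a Cre fused to an estrogen receptor domain, expressed from the *Rosa26* locus, was present. From each mouse there was 1 culture without drug (WT) and 1 with 1 µM tamoxifen (KO), and 200 ng of total RNA from each culture was hybridised to a separate Affymetrix Mouse Gene 1.0 ST array. No culture received tamoxifen without the floxed alleles, so an effect of the drug or of Cre and an effect of the deletion cannot be told apart. The sources used here give neither the age nor the sex of the mice.

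In stem and progenitor cells, GATA2, the helix-loop-helix factor TAL1 and the adaptor LMO2 sit together on DNA in complexes bridged by LDB1, often beside RUNX1, LYL1, SPI1 and the ETS factors ERG and FLI1. HOXA9 and its cofactor MEIS1 keep progenitors from differentiating and are known from leukemia, where they are often overexpressed together. MYB drives the expansion of progenitors, HLF is a basic leucine zipper factor of stem cells, and CD34 is a sialomucin on the surface of progenitors and endothelium. Most of these genes are turned down as blood cells mature, while RUNX1 stays on in many mature lineages. GFI1 and GFI1B are repressors of the same progenitor network, and the comparison asks whether stem and progenitor regulators were higher once tamoxifen was given to delete them.

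The values were intensities on a linear scale, taken as already normalized between arrays, and differences are given here as KO minus WT on the log2 scale. The targeted genes were not lower in KO pDCs. For mice 1, 2 and 3, the intensity of *Gfi1* was 56.1, 47.8 and 43.3 without and 60.5, 67.1 and 61.9 with tamoxifen, and *Gfi1b* had 179, 161 and 155 in WT and 194, 279 and 259 in KO. As 1 probe set covers the whole transcript of each gene, the loss of floxed exons cannot be read from it, and genotyping PCR in the study showed incomplete deletion in such cultures. To judge dim signals, probe sets of olfactory and vomeronasal receptors, which blood cells are not expected to express, were used as background, and their 95th percentile was an intensity of 61.5. All 17 measured markers of pDCs lay above it, and so did *Gfi1b*. On average *Gfi1* was dimmer than this level, so its values cannot show whether its transcript fell. Both arrays of mouse 1 stood apart, with summed intensities of macrophage and monocyte markers of 9416 (WT) and 7950 (KO) against 27906 to 34533 in the other 4 arrays. Those of stromal cell markers were 1099 and 1067 in mouse 1, 12443 and 14359 in the WT and 4582 and 5000 in the KO cultures of mice 2 and 3. *Xist*, the noncoding RNA of X inactivation, was at 1893 to 2449 in mice 1 and 2 and at 23.9 and 24.6 in mouse 3.

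No gene of the 9 passed the test between KO and WT pDCs. Their differences were small and mostly positive: 8 were higher and 1 was lower in KO on the mean, from -0.01 for *Lmo2* to 0.52 for *Myb*, and none reached 2-fold. The median of the 9 was 0.15, against 0.03 over all 21640 probe sets tested, of which 55.9% were higher in KO. By limma with adjustment over all of these probe sets, 0 of the 9 passed an adjusted p of 0.05, as did 0% of all probe sets, and 0 of the 9 had an unadjusted p under 0.05, against 5.14% of all probe sets for higher and 1.9% for lower values. With the mouse as a block, which compares the cultures within each mouse, again 0 of the 9 passed the adjusted p (0% of all), and 0 were under an unadjusted p of 0.05 (7.46% of all higher, 5.99% lower). *Meis1* and *Runx1* were higher in KO in all 3 mice (2 of 9 genes, against 21.3% of all probe sets), and no gene was lower in all 3 (17.4% of all). For 1 of the 9, *Runx1*, every KO array lay above every WT array, which held for 10.2% of all probe sets. The shares called, higher in all 3 mice, lower in all 3 and not overlapping lie near or below those of all probe sets, while the share higher on the mean lies above. In mouse 1, 5 of the 9 genes were higher in KO, and in mice 2 and 3 it was 7 each. The 55.9% was counted over dim and bright probe sets alike. Of the 9 genes, 7 were above the background percentile, *Meis1* and *Runx1* among them. Among the 12522 probe sets above it, 14.2% were higher and 26% lower in KO in all 3 mice. With 3 arrays against 3, the smallest two-sided p of an exact permutation test is 0.1.

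**Figure D1:**
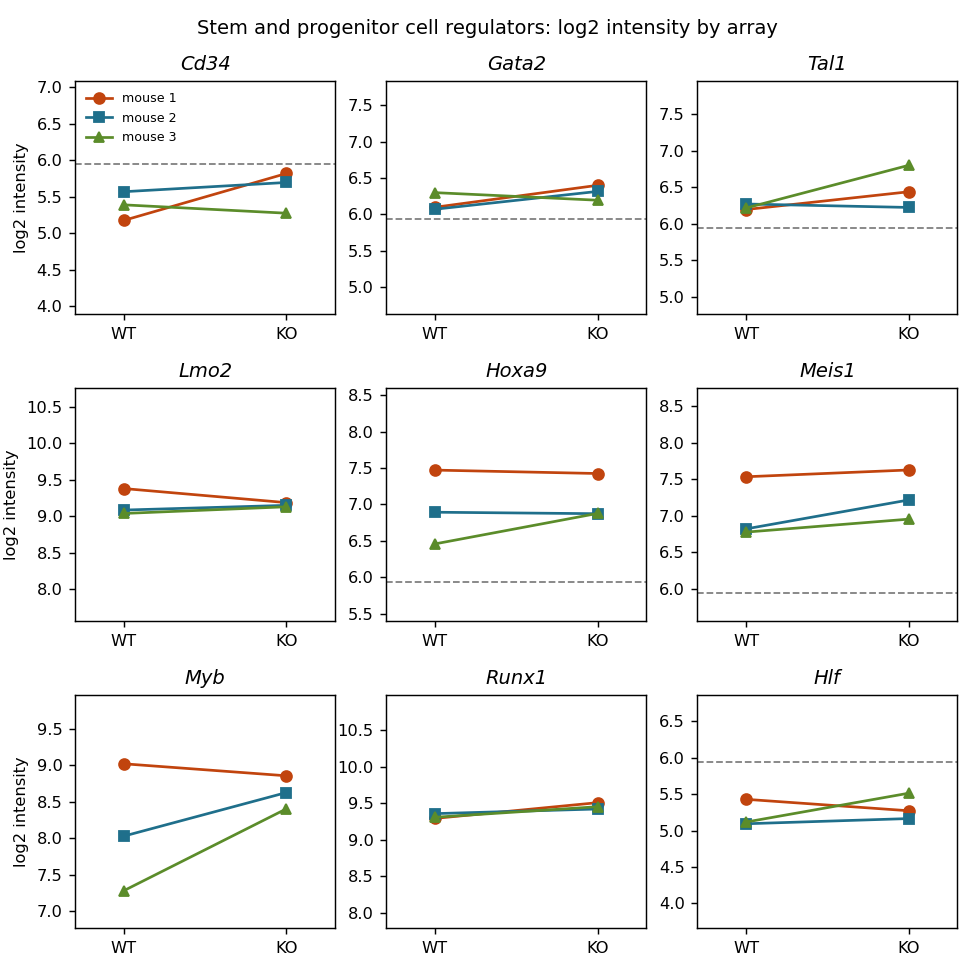
Log2 intensity (vertical axis, 3.2 units high in each panel) of the 9 genes in the WT and the KO culture of each mouse, 1 point per array with a line joining the cultures of 1 mouse. The dashed line marks the background level, the 95th percentile over probe sets of chemosensory receptors, which *Cd34* and *Hlf* do not reach, and the WT points of *Myb* are spread from 155 to 519 in intensity while those of *Runx1* lie between 628 and 657.

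Among these genes, *Myb* had the largest difference and the largest spread. Its intensities in WT pDCs were 519, 261 and 155 in mice 1, 2 and 3, and in KO pDCs 463, 395 and 338. The WT cultures thus differed by 3.34-fold from the lowest to the highest and the KO cultures by 1.37-fold, and the ranges of WT and KO overlap, since the WT culture of mouse 1 was the highest of all 6. Within mice 1, 2 and 3 the difference, KO minus WT, was -0.16, 0.60 and 1.12, with a mean of 0.52. Limma gave this mean a standard error of 0.42 without the block (adjusted p = 0.79) and of 0.23 with it (adjusted p = 0.38). Leaving out the WT array of mouse 3 gave a mean of 0.10, and leaving out the WT array of mouse 1 gave 0.97, so a single array moved it by more than 1.5 times in either direction. Such a fit leaves 1 mouse with a culture in only 1 group, so differences between mice enter the mean. With both cultures of a mouse left out, the mean was 0.86, 0.48 and 0.22 without mice 1, 2 and 3. In mice 2 and 3 alone, with the mouse as a block, *Myb* was higher in KO by 0.86 (standard error 0.16, adjusted p = 0.0395 from limma). It was the only gene of the 9 to pass there, against 0.559% of all probe sets as higher in KO and 2.37% in either direction. This fit was chosen after the values had been seen, rests on 4 arrays, and without the block the same 4 arrays gave an adjusted p of 0.19. The pDC markers moved with *Myb*: the median difference of the 17 was -0.11, 0.38 and 0.62 in mice 1, 2 and 3. Their summed intensity was 56073, 29639 and 24476 in the WT and 53342, 38140 and 35210 in the KO cultures. Summed neutrophil markers went the other way in mice 2 and 3, from 10029 to 3257 and from 14660 to 5571, and were at 1800 and 934 in mouse 1. Summed proliferation markers, 17 measured, ran opposite to *Myb* in each mouse. They went from 3031 to 5892 in mouse 1, from 5546 to 4721 in mouse 2 and from 5126 to 4637 in mouse 3. The parts of these marker lists in the difference of *Myb* were not tested, and in bulk arrays fewer cells of a type and less RNA per cell cannot be told apart.

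*Runx1*, which encodes the DNA-binding subunit of core binding factor, was the most even of the 9. Its intensities were 628, 657 and 634 in the WT and 729, 686 and 701 in the KO cultures of mice 1, 2 and 3, so the groups do not overlap. The difference was 0.22, 0.06 and 0.14 within the mice and 0.14 on the mean. Limma gave a standard error of 0.08 without the block (adjusted p = 0.73) and of 0.10 with it (adjusted p = 0.52). The exact two-sided permutation test gave p = 0.1. The mean difference corresponds to 1.10-fold and lay between 0.09 and 0.18 under all other settings tried. *Cbfb*, the shared subunit without DNA contact, was at -0.09 (standard error 0.11) and *Runx3*, a paralog of lymphoid and dendritic cells, at 0.15 (standard error 0.32). With the block the standard errors were 0.11 for *Cbfb* and 0.10 for *Runx3*. The differences of *Runx3* within mice 1, 2 and 3 were 0.05, 0.24 and 0.15. *Runx2* had no probe set with 1 symbol.

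The start regions of these genes are shown because GFI1 and GFI1B bind DNA at sites with an AATC core. The sequences below are the 250 bases before the outermost annotated start of *Myb* (chr10:21160985-21161234), *Hoxa9* (chr6:52227371-52227620) and *Runx1* (chr16:92826075-92826324) in the RefSeq annotation of GRCm38.p6, all on the minus strand and read 5′ to 3′ along the gene. They were chosen as the gene with the largest difference, a gene that differed more by mouse than by treatment, and the gene whose KO and WT arrays did not overlap. Capitals mark AATC or its reverse complement GATT.
Myb: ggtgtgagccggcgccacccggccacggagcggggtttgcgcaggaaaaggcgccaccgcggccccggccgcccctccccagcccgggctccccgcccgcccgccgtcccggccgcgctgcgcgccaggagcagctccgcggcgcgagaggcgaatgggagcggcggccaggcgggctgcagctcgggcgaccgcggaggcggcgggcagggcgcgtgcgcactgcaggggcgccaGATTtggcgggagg
Hoxa9: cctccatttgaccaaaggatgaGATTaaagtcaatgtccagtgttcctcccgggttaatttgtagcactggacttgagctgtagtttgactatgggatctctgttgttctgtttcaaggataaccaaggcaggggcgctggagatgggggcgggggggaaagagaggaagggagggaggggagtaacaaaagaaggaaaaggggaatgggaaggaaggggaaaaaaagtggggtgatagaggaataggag
Runx1: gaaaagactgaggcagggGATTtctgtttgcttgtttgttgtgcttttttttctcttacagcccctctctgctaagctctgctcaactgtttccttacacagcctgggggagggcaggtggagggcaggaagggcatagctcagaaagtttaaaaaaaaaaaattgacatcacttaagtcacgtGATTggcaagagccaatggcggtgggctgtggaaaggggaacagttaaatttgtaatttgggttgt
The window of *Myb* holds 1 match, that of *Hoxa9* 1 and that of *Runx1* 2. With annotated starts that are not the outermost included, there were 11 windows of this length for 8 of the 9 genes. Of these 11, 8 held at least 1 match on either strand, against 69% of 32817 windows over all genes. None held the longer TAAATCAC, which 0.515% of all windows hold. A match is a description of letters and not a binding site.

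The genes of the GATA2, TAL1 and LMO2 complex showed no common change. *Lmo2*, the bridging adaptor, had 667, 544 and 526 in the WT and 583, 568 and 561 in the KO cultures of mice 1, 2 and 3. Here the WT culture of mouse 1 was the highest and the other 5 arrays lay close together, and the mean difference was -0.01 (standard error 0.12, adjusted p = 0.99 from limma). *Tal1*, the helix-loop-helix partner, had 73.2, 77.1 and 74.3 in WT and 86.6, 74.6 and 111 in KO pDCs. Its WT values and the KO value of mouse 2 were only slightly above the background percentile of 61.5. The 3 WT arrays were nearly equal, 2 of the KO arrays lay above them and that of mouse 2 within them, so the mean of 0.26 (standard error 0.16, adjusted p = 0.74 from limma) came to 0.10 without the KO array of mouse 3. In mouse 3, markers of megakaryocytes, which use *Tal1*, moved in the same direction as *Tal1*: *Itga2b*, the platelet integrin, went from 72.7 to 138 and *Gp5*, a platelet glycoprotein, from 107 to 186. In mouse 2 both were also higher in KO (88.5 to 128 and 96.1 to 148) while *Tal1* was not, and in mouse 1 *Itga2b* went from 76.3 to 66.7 while *Tal1* was higher. The summed intensity of the 8 measured megakaryocyte markers was 1600, 3939 and 7169 in WT and 1079, 2710 and 4687 in KO, of which *Pf4*, a chemokine of platelet granules, gave 793, 2887 and 5424 in WT and 419, 1347 and 2827 in KO, and their part in the values of *Tal1* was not tested.

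*Gata2*, the zinc finger factor of stem cells, mast cells and megakaryocyte progenitors, had 68.6, 67.3 and 78.8 in the WT and 84.4, 79.7 and 73.3 in the KO cultures of mice 1, 2 and 3. It was higher in KO in mice 1 and 2 (0.30 and 0.24) and lower in mouse 3 (-0.10). The groups overlapped, with a mean of 0.15 (standard error 0.11, adjusted p = 0.78 from limma without the block). All 6 values were only slightly above the background percentile of 61.5. The WT culture of mouse 3 also held the highest basophil signal: *Mcpt8*, a protease of basophils, was at 435 there and at 130 in its KO culture, against 30.4 to 71.0 in the other 4 arrays, and *Prss34*, another basophil protease, was at 310 and 110 against 51.9 to 80.7. Of 14 measured mast cell and basophil markers, *Gata2* itself and *Kit* included, 4 lay above the background percentile, and *Cpa3*, *Ms4a2*, *Fcer1a* and *Cma1* did not. The part of basophils in the values of *Gata2* was not tested.

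The partners of these genes were taken as a list of 31 genes, 30 of them measured, with a median difference of 0.01. None passed the adjusted p with or without the block, 1 was higher and 0 were lower at an unadjusted p under 0.05 (5.14% and 1.9% of all probe sets), and with the block 2 were higher and 1 lower (7.46% and 5.99%). The gene with the smallest p was *Lmo1*, a relative of *Lmo2*, at 0.34 (standard error 0.14), but its intensities of 26.8 to 42.8 lay below the background percentile. *Ldb1*, the protein that joins LMO2 complexes, had 661 to 750 in WT and 691 to 741 in KO pDCs, with a difference of -0.01. *Cbfa2t3*, a corepressor of TAL1 complexes, had 595, 339 and 222 in WT and 668, 462 and 399 in KO pDCs, an order of arrays much like that of *Myb*, and a mean difference of 0.49 (standard error 0.38, adjusted p = 0.79 from limma, 0.31 with the block). *Lyl1*, the paralog of *Tal1*, ran the other way across mice, with 217 and 239 in mouse 1 and 354 to 455 in the other 4 arrays, and so did *Spi1*, the ETS factor of myeloid cells, with 487 and 587 against 894 to 1066. Their mean differences were -0.10 and -0.02. *Gata1*, *Gata3* and *Erg* stayed below the background percentile in all 6 arrays, while *Fli1* was at 724, 827 and 741 in WT and 594, 750 and 748 in KO pDCs (mean difference -0.14, standard error 0.13).

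*Hoxa9* and *Meis1* differed more between mice than between treatments. *Hoxa9* had 177, 119 and 88.0 in the WT and 172, 117 and 118 in the KO cultures of mice 1, 2 and 3. Both arrays of mouse 1 were the highest, 3 arrays were nearly equal and the WT culture of mouse 3 was the lowest. The differences within the mice, -0.05, -0.02 and 0.42, averaged 0.12. Limma gave a standard error of 0.29 without the block (adjusted p = 0.94) and of 0.13 with it (adjusted p = 0.68). The mean difference was -0.12 without the WT array of mouse 3. *Meis1*, a homeodomain cofactor of HOXA9, had 186, 113 and 110 in WT and 198, 149 and 124 in KO pDCs. It was higher in KO within every mouse (0.09, 0.40 and 0.18), while the groups overlap, and its mean of 0.22 did not pass (standard error 0.26, adjusted p = 0.86 from limma; standard error 0.11 and adjusted p = 0.41 with the block). Single arrays moved that mean by over 1.5 times: leaving out the WT array gave 0.47 for mouse 1, 0.11 for mouse 2 and 0.09 for mouse 3, and leaving out the KO array gave 0.04 for mouse 1 and 0.38 for mouse 3. Each of these fits left 1 mouse with a culture in only 1 group, so differences between mice enter the mean. With both cultures of a mouse left out, the mean was 0.29, 0.14 and 0.24 without mice 1, 2 and 3. Averaged over both cultures of a mouse, mouse 1 exceeded mice 2 and 3 by 0.56 and 0.72 for *Meis1*, by 0.56 and 0.78 for *Hoxa9* and by 0.61 and 1.10 for *Myb*.

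A test of the mouse, with the treatment kept in the model, was added after these values had been seen. *Meis1* passed it (adjusted p = 0.037 from limma's F test), and *Hoxa9* (0.0515) and *Myb* (0.12) did not, so 1 of the 9 genes passed, against 8.91% of all probe sets. The other 6 genes had adjusted p-values of 0.61 to 0.99. In 4 of the 9 genes, *Lmo2*, *Hoxa9*, *Meis1* and *Myb*, both arrays of mouse 1 lay above the other 4 arrays, which held for 21.6% of all probe sets. The same order was found in 15 of the 17 pDC markers, such as *Siglech*, a surface lectin of pDCs, with 6917 and 6439 in mouse 1 and 2721 to 4795 elsewhere. The mice also differed in *Xist* and in the marker lists given above, and the parts of these in the differences between mice cannot be told apart.

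**Figure D2:**
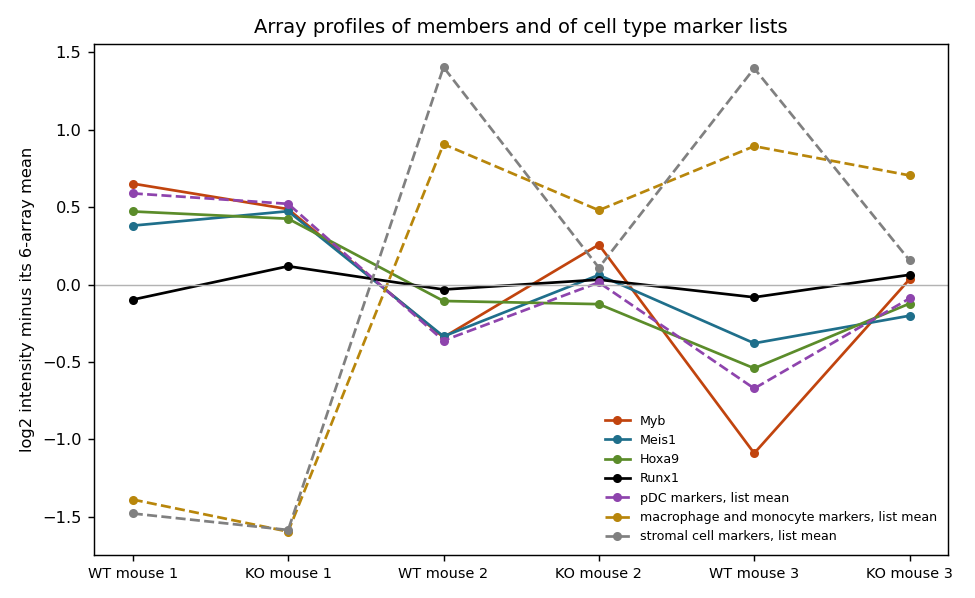
Log2 intensity of 4 of the genes (solid lines) and mean log2 intensity of 3 lists of cell type markers (dashed lines), each minus its own mean over the 6 arrays (vertical axis), by array. *Myb*, *Meis1*, *Hoxa9* and the pDC markers are highest in both arrays of mouse 1. In the WT arrays of mice 2 and 3, where the stromal cell markers are highest, *Myb*, *Meis1* and the pDC markers are lowest, while *Hoxa9* is low only in that of mouse 3 and *Runx1* stays nearly flat.

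Several other genes of the HOXA cluster were also highest in mouse 1. The homeobox list held 33 genes with their TALE cofactors and regulators, 29 measured, with a median difference of 0.05. None passed the adjusted p with or without the block and none had an unadjusted p under 0.05, while with the block 2 were higher and 0 lower at that threshold (7.46% and 5.99% of all probe sets). Those 2 were *Hoxa7*, with 211, 127 and 110 in WT and 230, 160 and 152 in KO pDCs (mean difference 0.31, standard error 0.28, adjusted p = 0.81 from limma and 0.34 with the block), and *Hoxa2*, which lay below the background percentile in all 6 arrays. *Hoxa5* had 175, 99.1 and 63.4 in WT and 166, 119 and 130 in KO pDCs, a profile like that of *Hoxa9* with the WT culture of mouse 3 lowest. In *Hoxa2*, *Hoxa3*, *Hoxa4*, *Hoxa5*, *Hoxa6* and *Hoxa7*, as in *Hoxa9*, both arrays of mouse 1 were the highest. *Hoxa10*, *Hoxa11* and *Hoxa13*, below the background percentile like *Hoxa2*, did not show this order. Over the whole list it held for 8 of the 29 measured genes, against 21.6% of all probe sets. Between mice, 4 of the 29 genes passed the test, against 8.91% of all probe sets, and *Hoxa2*, *Hoxa3* and *Hoxa7* were those of the cluster (adjusted p = 0.0496, 0.038 and 0.032 from limma's F test). The other, the cofactor *Pbx3*, was lower in mouse 1 (36.0 and 37.8) than in the other arrays (57.1 to 74.1).

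**Figure D3:**
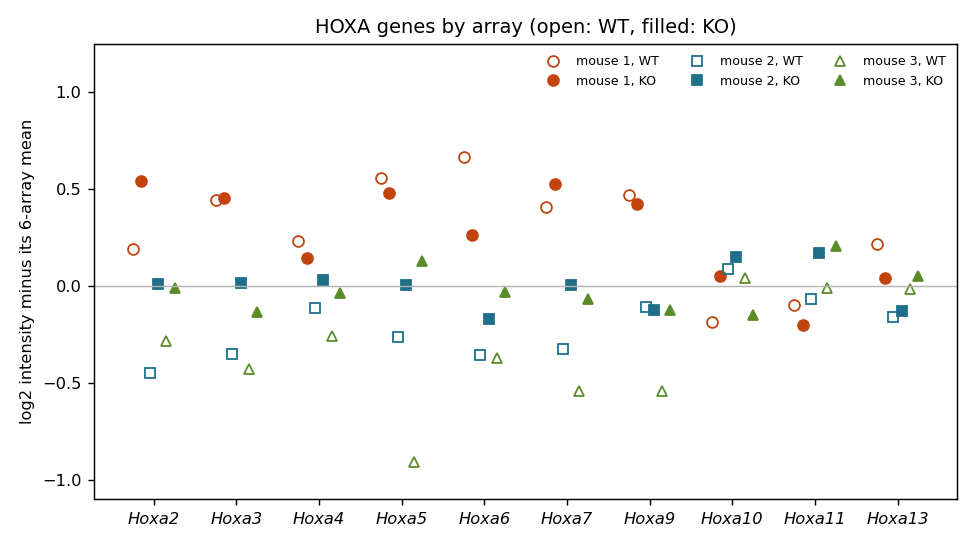
Log2 intensity of 10 genes of the HOXA cluster in each array, minus the gene's own mean over the 6 arrays (vertical axis), with open symbols for WT and filled symbols for KO. From *Hoxa2* to *Hoxa9* both arrays of mouse 1 lie above the other 4, and in *Hoxa3*, *Hoxa4*, *Hoxa5*, *Hoxa6*, *Hoxa7* and *Hoxa9* the WT array of mouse 3 is the lowest.

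*Cd34* and *Hlf* were within background. *Cd34* had 36.1, 47.4 and 41.9 in the WT and 56.4, 51.8 and 38.7 in the KO cultures of mice 1, 2 and 3, all below the background percentile of 61.5. Its differences of 0.64, 0.13 and -0.11 had no common sign (mean 0.22, standard error 0.18, adjusted p = 0.79 from limma without the block). Without mouse 1 the mean was 0.01. *Hlf* had 43.1, 34.1 and 34.7 in WT and 38.6, 35.9 and 45.6 in KO pDCs, with a mean of 0.10 (standard error 0.14, adjusted p = 0.88 from limma). A fold at this level is compressed by background, so these values do not show whether either gene was expressed. Relatives of *Hlf* were brighter: *Tef* had 134 to 153 in WT and 134 to 151 in KO pDCs with a difference of -0.00, while *Nfil3*, a repressor that binds similar sites, had 153, 327 and 800 in WT and 111, 156 and 254 in KO pDCs. *Nfil3* was thus lower in KO in all 3 mice, at -1.06 on the mean (standard error 0.62, adjusted p = 0.73 from limma, 0.29 with the block), and its groups overlap.

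**Figure D4:**
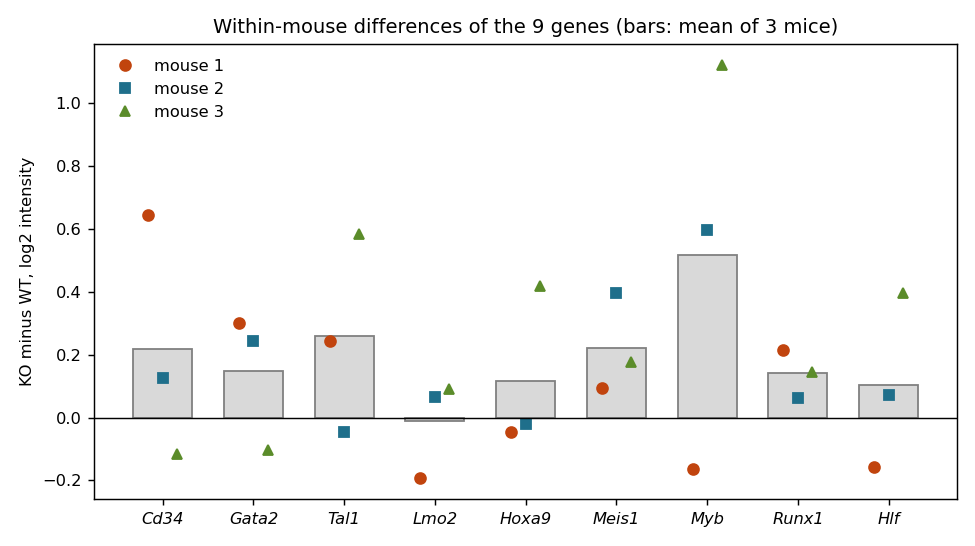
Difference in log2 intensity, KO minus WT (vertical axis), of the 9 genes within each mouse (symbols) and on the mean of the 3 mice (bars). Only *Meis1* and *Runx1* have all 3 symbols above 0, and *Myb* ranges from -0.16 in mouse 1 to 1.12 in mouse 3.

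Of 49 further genes of stem and progenitor cells, 45 were measured, with a median difference of 0.10. None passed the adjusted p with or without the block, 4 were higher and 0 lower at an unadjusted p under 0.05 (5.14% and 1.9% of all probe sets), and with the block 7 were higher and 1 lower (7.46% and 5.99%). The 4 were *Kit*, *Nkx2-3* and the targeted genes themselves, *Gfi1b* and *Gfi1*. *Kit*, the receptor for stem cell factor, had 107, 98.5 and 80.8 in the WT and 126, 129 and 131 in the KO cultures of mice 1, 2 and 3. Its 3 KO arrays were nearly equal and lay above all WT arrays, with a difference of 0.44 (standard error 0.12, adjusted p = 0.69 from limma, 0.31 with the block). *Nkx2-3* lay below the background percentile, as did *Gfi1* on the mean of the 6 arrays. *Flt3*, the receptor for the cytokine of these cultures, had 1767, 756 and 526 in WT and 1569, 1215 and 976 in KO pDCs, the same order of arrays as *Myb*, and a difference of 0.47 (standard error 0.45, adjusted p = 0.82 from limma). *Cd27*, a receptor of lymphoid progenitors, was at 146, 93.0 and 91.1 in WT and 145, 140 and 145 in KO pDCs, with a difference of 0.42 (standard error 0.19, adjusted p = 0.71 from limma, 0.34 with the block). *Myc*, a growth regulator downstream of many progenitor signals, had 80.1, 347 and 442 in WT and 63.5, 177 and 203 in KO pDCs, with a difference of -0.81 (standard error 0.75, adjusted p = 0.81 from limma, 0.29 with the block). *Cdkn1c*, a cell cycle inhibitor of stem cells, had 90.6, 153 and 173 in WT and 110, 275 and 320 in KO pDCs, with a difference of 0.67 (standard error 0.45, adjusted p = 0.76 from limma, 0.29 with the block). Both *Myc* and *Cdkn1c* were lowest in mouse 1. *Mecom*, *Slamf1* and *Prom1*, markers of stem cells, were below the background percentile in all 6 arrays.

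**Figure D5:**
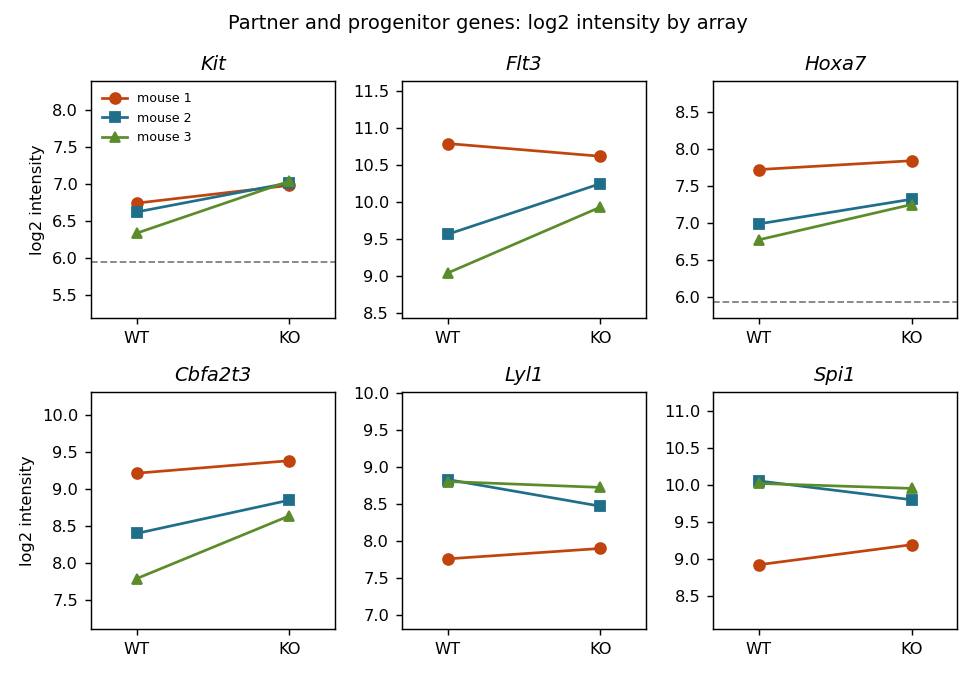
Log2 intensity (vertical axis, 3.2 units high in each panel) of 6 partner or progenitor genes in the WT and the KO culture of each mouse, drawn as for the 9 genes, with the same dashed background line. *Kit* lies higher in all KO arrays, *Flt3*, *Hoxa7* and *Cbfa2t3* are highest in mouse 1, and *Lyl1* and *Spi1* are lowest in mouse 1.

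The genes whose log2 intensity followed each of the 7 brighter members most closely over the 6 arrays were sought among 11512 genes above the background percentile. For *Myb* they were *Cd300c* (Pearson's r of 0.999), *Klrd1* (0.998) and *Anapc16* (0.993), and *Klrd1*, a lectin-like receptor known from NK cells, had 3299, 1431 and 799 in WT and 3045, 2378 and 2149 in KO pDCs. For *Hoxa9* they were *Ncald*, *Nfkbie* and *B4galt3* (0.9998, 0.9995 and 0.997), and for *Meis1* *Ang2*, *Gpsm1* and *Gm10684* (0.996, 0.995 and 0.994). With 6 arrays from 3 mice such values are descriptions, since the points share a mouse in pairs. A correlation over 0.9 with *Myb* was found for 523 of these genes (4.54%) and for 14 of the 17 pDC markers, with *Hoxa9* for 11% and 13 of 17, and with *Meis1* for 8.44% and 12 of 17. For *Gata2*, *Tal1* and *Runx1* it was found for 0.243%, 0.625% and 0.365% of the genes and for 0 of the 17 markers, and for *Lmo2* for 5% and 5 of 17. *Runx1* was followed most closely by *Grk3* (0.997), *Tal1* by *Trim56* (0.983), *Gata2* by *Ssu2* (0.988) and *Lmo2* by *Znrf3* (0.995). Next after *Ssu2* for *Gata2* came *Olfr982* (0.980), an olfactory receptor gene of the class used here as background.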

How the data were processed

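RNA of sorted pDCs from 3 WT and 3 KO cultures was measured on Affymetrix Mouse Gene 1.0 ST arrays. The deposited intensity values, 1 per probe set and array for 34760 probe sets, were taken as already normalized between arrays, since their column medians were close, at 69.0 to 72.9. The sources used here do not give the method. Precision is limited by the number of arrays, 3 in each group.

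The log2 of each intensity was analysed without further normalization. The 21640 probe sets paired with exactly 1 symbol were tested in R 4.3.3 with limma 3.58.1 (lmFit, then eBayes), and two-sided p-values were adjusted by Benjamini-Hochberg and called at 0.05 (1321 probe sets with several symbols and 11799 with none were left out). Groups were compared without a block. The labels pair an untreated and a treated culture of each mouse, and deviations from the group mean correlated at 0.81, 0.51 and 0.67 between the WT and KO arrays of mice 1, 2 and 3 (between mice 2 and 3, 0.50 and 0.42), so blocking on the mouse was tried as an alternative. No filter on dim probe sets was used, so all 9 genes were tested. The genes and lists were chosen with earlier results of these data known. Named genes were the 9, their direct partners, up to 6 genes per partner list and 3 per marker list by smallest p, and the 3 most similar profiles per gene, of which some are given. Genes of these lists outside that rule, such as *Myc*, *Cdkn1c*, *Mecom*, *Pf4*, *Mcpt8*, *Siglech* and *Hoxa3*, were chosen after their values were seen. The steps were tested on simulated data. Alternatives were other scalings, a floor, a filter, an offset, array weights, other variance models and each array or mouse left out.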

Additional observations from a re-analysis of the deposited data

How the results depend on the processing

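In 19 other settings with a test, apart from those added later, 0 of the 9 genes passed the adjusted p (0.19 to 1.0 over genes and settings), and at most 1 had an unadjusted p under 0.05. The replicate block of the mouse left the count at 0 and changed no call. With the replicate block and mouse 1 left out, a setting chosen after seeing the data, the count was 1 (*Myb*, log2 difference 0.86). Leaving out an array or a mouse gave a median difference of the 9 genes, 0.15 with all arrays, of 0.10 (no WT array of mouse 3) to 0.21 (no WT array of mouse 1). Of 178 single values under these settings and with arithmetic means, 169 kept their direction and call and 9 reversed. *Lmo2* reversed to 0.041 after a further quantile normalization and 0.056 with array weights. Leaving out single arrays or mice gave -0.077 to 0.094 for *Lmo2*, with 0.00051 when the KO array of mouse 3 was dropped and 0.078 when mouse 1 was, -0.12 to 0.38 for *Hoxa9*, with -0.066 when the KO array of mouse 1 was dropped, and -0.043 to 0.23 for *Hlf*. Dropping mouse 3 gave -0.034 for *Hoxa9* and -0.043 for *Hlf*, and these values were the same with the block. *Cd34* and *Hlf* have no value where dim probe sets were left out. Centring each array on its median moved the median of all probe sets from 0.03 to -0.03 and that of the 9 genes from 0.15 to 0.09. The cause of these changes was not tested.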
